A study of Homo sapiens with 24 samples.

Results

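The genes described here were the 28 genes of cholesterol synthesis and of its control by SREBP2, taken as the rows of the gene count table whose Ensembl identifiers map to a fixed list of symbols. All 28 were found among 58676 gene rows, and all 28 passed the filter on low counts in every comparison. Counts came from 24 libraries of HSJD-DIPG-007, a patient-derived diffuse midline glioma cell line that carries H3F3A K27M, ACVR1 R206H and PIK3CA MIS (as its label spells the last) in both arms. In one arm the cells, grown as spheroids, received LLY-283, an inhibitor of the arginine methyltransferase PRMT5, at the dose that inhibits growth by 40% (GI40), and in the other they received vehicle (DMSO). LLY-283 acts on a protein, so no transcript serves as a check of the treatment labels. Each arm held 3 libraries at day 0, 1 each at days 1, 2 and 3, 3 at day 5, 2 at day 7 and 1 at day 10, which made 12 libraries an arm. The medium was replaced, with the same compound or vehicle, after day 5, so the libraries of days 7 and 10 followed a second dose. The study describes libraries of the same day as technical repeats of 1 cell line, so the p values below measure only the spread between such libraries.

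Cholesterol is made from acetyl-CoA. Thiolase and HMG-CoA synthase form HMG-CoA, which is reduced to mevalonate, and mevalonate is phosphorylated and decarboxylated to isoprenoid units. These are joined to farnesyl pyrophosphate, which is condensed to squalene, cyclised to lanosterol and trimmed and rearranged to cholesterol. The transcription factor SREBP2, encoded by SREBF2, is held in the endoplasmic reticulum by SCAP and the INSIG proteins when sterols are plentiful. When sterols fall, SCAP escorts it to the Golgi, where the site 1 and site 2 proteases release the part that enters the nucleus and raises transcription of most of the synthesis enzymes and of INSIG1. In the brain cholesterol is made locally, and glial cells supply much of it.

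Library totals lay between 13835205 and 23190369 counts. Levels are CPM, counts scaled to library size with TMM factors, which compares a gene between libraries but not genes with each other. Markers of the labelled glioma identity were abundant in every library (OLIG2 230.0 to 372 CPM, NES 1910 to 2830 CPM), with the exception of SOX10, which did not exceed 0.603 CPM and was at 0 in 1 library. The summed level of 11 fibroblast markers lay between 202 and 392 CPM. THY1 (median 137 CPM) and POSTN (55.0 CPM) gave the largest parts of it. COL1A2, COL3A1, FN1 and DCN had medians of 1.08, 0.218, 3.09 and 0.624 CPM. By day 5, 3 of the 10 fibroblast markers tested were higher with LLY-283 and 7 were not called, while 6 of the 10 estimates were negative. Of 7 glial markers tested 2 were lower and 3 higher. COL3A1 was at 0 in 4 libraries. The fibroblast sum was highest in vehicle day 5 repeat 3, where FN1 reached 60.5 CPM and COL1A1 53.9 CPM. At day 7 the repeats stood apart from their own arm: the distance between them was 11.2 (vehicle) and 13.4 (LLY-283) in chi-square per degree of freedom, against 1.65 to 3.79 between repeats at days 0 and 5. Day 7 is therefore given by label and kept out of the main comparisons. In bulk RNA, fewer cells of a type and less RNA per cell cannot be told apart.

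By day 5, 19 of the 28 genes were lower and 3 higher in LLY-283 treated libraries than in those of the vehicle arm by edgeR's quasi-likelihood test at an adjusted p under 0.01. The background over all 16491 genes tested was 14.1% lower and 12% higher. With library size alone in place of TMM, the split over all genes turned to 1840 lower and 2274 higher from 2317 and 1987. Of the 28 genes 19 were still lower and 3 higher. The fall reached from the first step of the pathway to the last, and the control genes were divided. The median log2 fold change of the 28 was -0.35, against 0.02 over all genes, and the medians of the 3 treated libraries taken singly were -0.30, -0.38 and -0.41. The study lists day 0 as 0 days of treatment, so the comparison of the arms there is a baseline and no test of LLY-283. At day 0 none of the 28 was called lower or higher by edgeR or by DESeq2. In edgeR none had an unadjusted p under 0.05, beside 1012 of the 17780 genes tested. The background at day 0 was 0.0% lower and 0.0169% higher. Of the 28 day 0 estimates 21 were negative, with a median of -0.04. Without vehicle day 0 repeat 1 none was called, but 10 of the 28 had an unadjusted p under 0.05 in edgeR. The median there was -0.10. With any other single day 0 library left out, 0 or 1 had such a p. These counts have no share over all genes beside them.

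**Figure D1:**
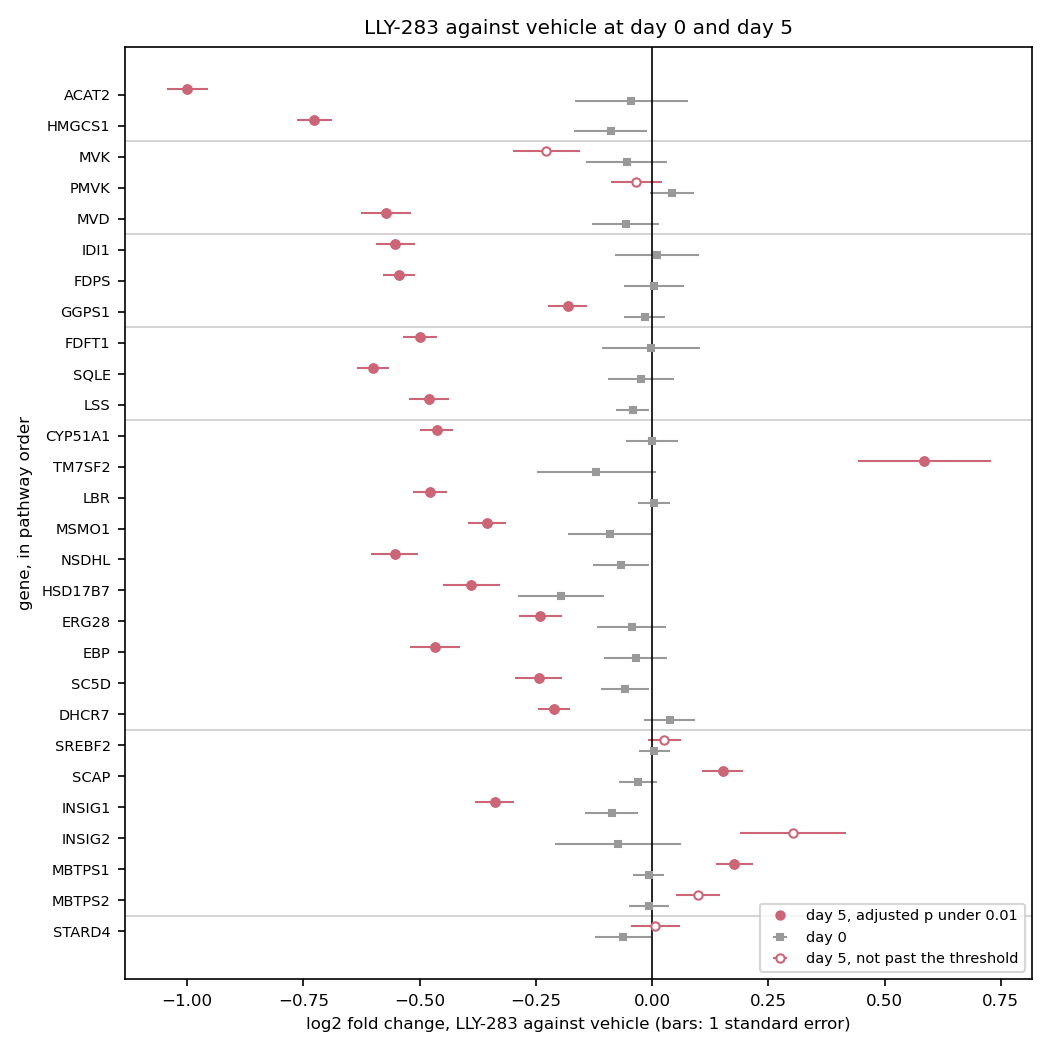
Log2 fold change of LLY-283 against vehicle for the 28 genes, at day 0 (grey squares) and day 5 (red circles, filled where the adjusted p is under 0.01), with bars of 1 standard error and grey lines between pathway steps. At day 5 the estimates run from -1.0 for ACAT2 to 0.59 for TM7SF2, while the day 0 estimates lie between -0.20 and 0.04.

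The largest change was at the entry to the pathway. ACAT2, the cytosolic thiolase that joins acetyl-CoA to acetoacetyl-CoA, measured 122, 125 and 116 CPM in the vehicle libraries at day 5 and 59.5, 61.8 and 57.0 CPM in the treated ones. Its log2 fold change was -1.0 (SE 0.0442, adjusted p = 1.22e-15), with no treated library near the lowest vehicle library. HMGCS1, the HMG-CoA synthase, stood at 347, 348 and 358 CPM in vehicle and at 223, 203 and 201 CPM in the treated arm, and so it fell by 39.6% (log2 fold change -0.73, SE 0.0370, adjusted p = 2.12e-14). Here too the arms were well separated. Exons of ACAT2 overlap those of the abundant gene TCP1 on the opposite strand over 454 bases, and the strand setting of the counting is not given in the sources used here.

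Of the 3 enzymes that phosphorylate and decarboxylate mevalonate, 1 was called. MVD, the decarboxylase, measured 65.8, 73.9 and 72.0 CPM in vehicle and 44.9, 49.1 and 45.6 CPM in the treated arm (log2 fold change -0.57, SE 0.0531, adjusted p = 1.99e-09). MVK, mevalonate kinase, measured 24.5, 29.1 and 29.4 against 23.8, 23.5 and 22.3 CPM, without overlap of the arms but short of the threshold (log2 fold change -0.23, adjusted p = 0.0135). PMVK, phosphomevalonate kinase, measured 56.8, 54.2 and 52.6 against 58.2, 50.5 and 48.8 CPM and its arms overlapped (log2 fold change -0.03, adjusted p = 0.672). All 3 genes that make and join isoprenoid units were lower. IDI1, the isomerase, measured 185, 183 and 197 CPM in vehicle and 136, 124 and 119 CPM in treated libraries (log2 fold change -0.55, adjusted p = 6.91e-11). FDPS, farnesyl pyrophosphate synthase, measured 419, 423 and 399 and 286, 274 and 277 CPM (log2 fold change -0.55, adjusted p = 1.56e-12). Both differed by far more than the spread within an arm. GGPS1, which makes geranylgeranyl pyrophosphate for protein prenylation, moved least of the genes called lower along this stretch, with 91.2, 93.1 and 91.6 against 84.7, 78.4 and 76.3 CPM (log2 fold change -0.18, SE 0.0426, adjusted p = 0.00121), and its call was lost without LLY-283 repeat 3 (adjusted p = 0.0136). GGPS1 shares 1422 exon bases with another annotated gene on the same strand, and the table holds 8 FDPS and 3 IDI1 pseudogenes, so counts of these genes may be split.

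The steps from farnesyl pyrophosphate to lanosterol fell together, 3 of 3 genes. FDFT1, squalene synthase, measured 362, 369 and 352 CPM in vehicle and 266, 246 and 242 CPM in the treated arm. SQLE, the epoxidase that commits squalene to sterols, measured 1303, 1284 and 1315 CPM against 888, 829 and 814 CPM, and LSS, which closes the lanosterol rings, 186, 199 and 187 against 127, 139.8 and 136 CPM. The arms did not overlap for any of them. Their log2 fold changes were -0.50 (SE 0.0361), -0.60 (SE 0.0351) and -0.48 (SE 0.0425), with adjusted p values of 2.06e-11, 2.96e-13 and 1.92e-09.

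Of the 10 genes between lanosterol and cholesterol, 9 fell and 1 rose. The C14 demethylase CYP51A1 measured 312, 314 and 319 CPM in vehicle and 236, 221 and 217 CPM in the treated arm (log2 fold change -0.46, adjusted p = 5.31e-11). NSDHL, which removes the C4 methyl groups together with MSMO1 and HSD17B7, measured 67.3, 63.3 and 61.4 against 44.4, 43.4 and 41 CPM (log2 fold change -0.55, adjusted p = 1.60e-09). Its partners fell less. MSMO1, the oxidase of this step, measured 163, 160.4 and 174 against 136, 125 and 123 CPM (log2 fold change -0.35), HSD17B7, the ketoreductase, 33.3, 35.2 and 33.5 against 26.3, 24.4 and 25.8 CPM (-0.39), and ERG28, the scaffold of the complex, 70.1, 66.6 and 66.6 against 57.3, 56.3 and 55.6 CPM (-0.24). Counts of CYP51A1 and HSD17B7 may also be split with the 3 and 2 pseudogenes that the table lists for them. Further down, EBP, the sterol isomerase, measured 60.7, 63.0 and 54.9 against 44.1, 41.6 and 41.5 CPM (-0.47, adjusted p = 8.26e-08) and SC5D, a desaturase, 66.0, 62.2 and 70.5 against 55.5, 53.2 and 55.9 CPM (-0.24, adjusted p = 3.26e-04). DHCR7, the 7-dehydrocholesterol reductase at the end of the pathway, measured 229.9, 230.2 and 227 against 198, 198 and 188 CPM (-0.21, adjusted p = 2.41e-05). The arms did not overlap for these 3 genes.

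The reduction of the C14 double bond can be carried out by either of a pair of proteins, TM7SF2 and LBR, and these moved in opposite directions. LBR, which also anchors the nuclear lamina, measured 427, 412 and 436 CPM in vehicle and 315, 298 and 286 CPM in the treated arm (log2 fold change -0.48, SE 0.0363, adjusted p = 5.08e-11). TM7SF2 was a low gene, at 4.91, 4.01 and 4.51 CPM in vehicle and 6.71, 6.32 and 6.81 CPM in treated libraries (log2 fold change 0.59, SE 0.143, adjusted p = 0.00178). Its arms did not overlap, yet the call was lost with DESeq2 (adjusted p = 0.0132) and without vehicle day 5 repeat 2 (adjusted p = 0.0148), although it was kept when the spread was shared over 22 libraries.

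Of the 6 control genes, 1 was called lower, as most enzymes were, and 2 were called higher. SREBF2 itself measured 354, 346 and 328 CPM in vehicle and 352, 342 and 336 CPM in the treated arm, and the arms overlapped (log2 fold change 0.03, SE 0.0355, adjusted p = 0.595). INSIG1, the sterol-responsive retention protein and itself a target of SREBP2, was the 1 control gene called lower, at 191, 191 and 214 against 159.5, 155 and 148 CPM (log2 fold change -0.34, SE 0.0424, adjusted p = 6.23e-07). INSIG2, its relative that is less responsive to SREBP2, measured 7.90, 8.35 and 7.32 against 9.57, 10.2 and 8.86 CPM, without overlap but short of the threshold (log2 fold change 0.30, adjusted p = 0.0378). The escort SCAP and the site 1 protease MBTPS1 were called higher with small changes, at 0.15 and 0.18. SCAP, at 67.7, 69.0 and 71.1 against 78.0, 75.4 and 73.4 CPM, lost its call when any 1 of the 6 libraries was left out, and MBTPS1, at 124, 121 and 123 against 145, 137 and 128 CPM, lost it without vehicle repeat 2 (adjusted p = 0.0154) or LLY-283 repeat 1 (adjusted p = 0.0103). The site 2 protease MBTPS2 measured 50.3, 52.0 and 52.8 against 55.6, 53.6 and 54.0 CPM (adjusted p = 0.113). STARD4, a carrier that moves cholesterol between membranes, measured 66.1, 64.7 and 76.5 against 70.2, 67.0 and 67.1 CPM and its arms overlapped (log2 fold change 0.01, adjusted p = 0.931).

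The day 5 calls rest on the spread between the libraries of that day. When all 22 libraries of days 0 to 7 shared 1 estimate of the spread, none of the 28 genes was called lower in edgeR. In that fit 1, TM7SF2, was called higher. Over all 20756 genes the same fit still called 1253 lower and 789 higher. Of the 28, 17 kept an unadjusted p under 0.05 in it, a count with no share over all genes beside it. The median log2 fold change of the 28 was -0.37, against 0.01 over all genes. With the 4 day 7 libraries left out of that fit, an alternative added after the data were seen, 19 were again called lower and 3 higher. Over all 20642 genes 2313 were then lower and 1906 higher. Without vehicle day 5 repeat 3, the library of highest fibroblast marker level, 19 were lower and 2 higher, beside 2002 and 1575 of 17237 genes. The summed fibroblast level at day 5 was 309, 308 and 308 CPM in the treated libraries and 223, 232 and 392 CPM in vehicle. Its part in the result was not tested.

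Sequence before the gene start was read for every gene of the 28 with a RefSeq window on GRCh38.p14, including those not called lower at day 5. ACAT2, FDFT1 and SQLE, all lower at day 5, had no window. Windows were present for 25 of the 28 genes (33 windows), and the 250 bases before each start were searched on both strands for exact matches to TCACNCCAC, a core of the sterol regulatory element that SREBP proteins bind, to CCAAT, the box bound by NF-Y, and to GGGCGG, the GC box bound by Sp1. The CCAAT box was found for 18 of the 25 genes, or 20 of 33 windows, while 32.0% of all 35116 windows held it. The GC box was found for 21 of the 25 genes, or 27 of 33 windows, and in 42.6% of all windows. The exact sterol element core was found for 1 gene, SREBF2, and in 0.883% of all windows. The SREBF2 window is printed because it holds that core. Those of MVD, FDPS and NSDHL, with 3, 3 and 5 CCAAT boxes, are printed as examples from genes lower at day 5. Windows of MSMO1 (4 boxes), ERG28, EBP and IDI1 (3 boxes each), genes also lower at day 5, are not printed. The window of MVK, not called lower, held 5 boxes, and those of CYP51A1 and LBR, both lower, held none. A link of the boxes with the day 5 change was not tested. In NSDHL a pair of these boxes lie on opposite strands and share bases. Capitals mark the sterol element core and CCAAT boxes on either strand.
SREBF2, chr22:41832855-41833104, plus strand: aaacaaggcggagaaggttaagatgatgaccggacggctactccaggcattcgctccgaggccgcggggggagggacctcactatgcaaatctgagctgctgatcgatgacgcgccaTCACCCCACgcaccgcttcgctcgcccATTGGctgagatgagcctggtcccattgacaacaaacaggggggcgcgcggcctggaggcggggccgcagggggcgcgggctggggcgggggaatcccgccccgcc
MVD, chr16:88663092-88663341, minus strand: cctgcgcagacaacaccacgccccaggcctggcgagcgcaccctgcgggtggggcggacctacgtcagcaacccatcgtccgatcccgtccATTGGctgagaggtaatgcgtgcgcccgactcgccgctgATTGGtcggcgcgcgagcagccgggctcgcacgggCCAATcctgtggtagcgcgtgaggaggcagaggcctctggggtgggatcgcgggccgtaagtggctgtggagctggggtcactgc
FDPS, chr1:155308616-155308865, plus strand: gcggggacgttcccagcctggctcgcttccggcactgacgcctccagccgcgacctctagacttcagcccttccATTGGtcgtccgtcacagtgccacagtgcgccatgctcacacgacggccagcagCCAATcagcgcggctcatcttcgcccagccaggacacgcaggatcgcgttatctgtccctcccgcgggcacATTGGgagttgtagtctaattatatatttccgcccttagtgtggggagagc
NSDHL, chrX:152830813-152831062, plus strand: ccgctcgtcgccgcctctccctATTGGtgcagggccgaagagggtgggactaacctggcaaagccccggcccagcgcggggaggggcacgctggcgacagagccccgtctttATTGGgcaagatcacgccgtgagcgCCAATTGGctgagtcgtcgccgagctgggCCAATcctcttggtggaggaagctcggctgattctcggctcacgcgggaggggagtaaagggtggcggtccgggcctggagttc
In SREBF2 the core begins 133 bases and the CCAAT box 106 bases before the start. A match is a description of letters and says nothing about binding in these cells, and a window without a match may hold a variant of the element.

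The next question was how the genes moved with culture time in each arm. In vehicle, 20 of the 28 genes were higher at day 5 than at day 0 and 3 were lower, against 22.2% higher and 16.7% lower of the 17106 genes tested. With library size alone in place of TMM, the split over all genes turned to 3545 lower and 3039 higher from 2853 and 3799, while of the 28 genes 4 were lower and 20 higher. The median log2 fold change was 0.56, against -0.02 over all genes. With LLY-283, 13 were higher and 5 lower, against 22.9% and 19.5% of 17341 genes, and the median was 0.19. The vehicle day 5 libraries enter both the vehicle time comparison and the day 5 comparison above, so these 2 sets of values are not independent. With the spread shared over 22 libraries, 7 of the 28 were called higher and 2 lower in vehicle, beside 3101 and 1994 of all 20756 genes. In the treated arm 5 were higher and 3 lower, beside 2817 and 2676 genes.

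**Figure D2:**
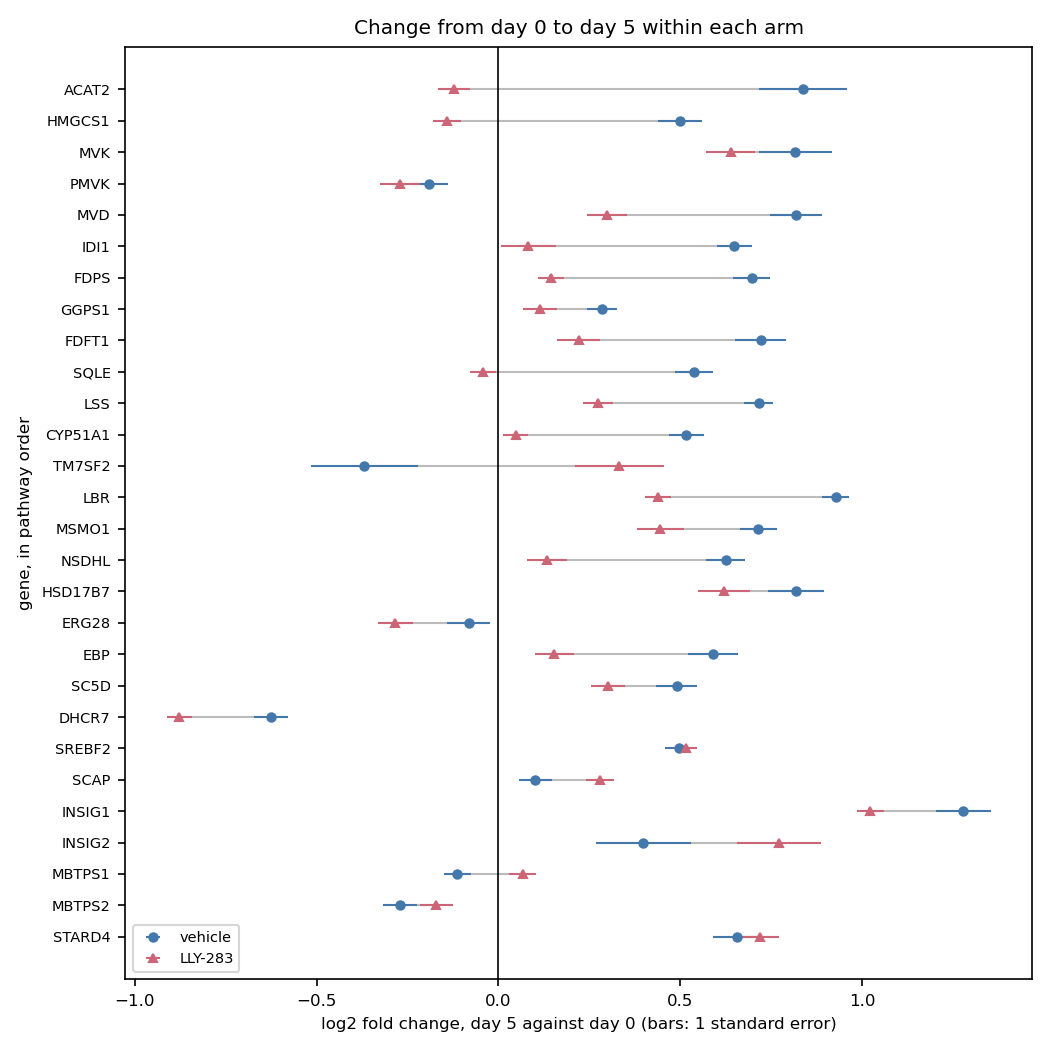
Log2 fold change from day 0 to day 5 within the vehicle arm (blue circles) and the LLY-283 arm (red triangles), with bars of 1 standard error and a grey line joining the 2 values of a gene. Most synthesis enzymes lie further right in vehicle, for example ACAT2 at 0.84 against -0.12, while SREBF2 lies at 0.50 and 0.51.

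The steepest vehicle rise was that of INSIG1, from 71.5, 83.6 and 87.4 CPM at day 0 to 191, 191 and 214 CPM at day 5 (log2 fold change 1.28, SE 0.0752). LBR went from 210.5, 225 and 227 to 427, 412 and 436 CPM (0.93), and ACAT2 from 55.1, 70.6 and 75.3 to 122, 125 and 116 CPM (0.84, adjusted p = 0.00408). The ACAT2 rise lost its call without vehicle day 0 repeat 2 or without any 1 vehicle library of day 5 (adjusted p from 0.0107 to 0.0218). In the treated arm ACAT2 went from 67.3, 62.8 and 66.3 to 59.5, 61.8 and 57.0 CPM (-0.12, adjusted p = 0.0238), and SQLE from 906, 828 and 903 to 888, 829 and 814 CPM (-0.04, adjusted p = 0.354). Neither was called, although ACAT2 had no overlap between the days. Also called higher in vehicle and not called in the treated arm were IDI1, at 0.65 in vehicle and 0.08 with LLY-283, CYP51A1 (0.52 and 0.05), NSDHL (0.62 and 0.13), EBP (0.59 and 0.15), FDFT1 (0.72 and 0.22) and GGPS1 (0.29 and 0.12). The treated libraries of the 2 days did not overlap for FDFT1 (adjusted p = 0.0128) or EBP (adjusted p = 0.0169), both higher at day 5. For GGPS1 the difference between the arms was not called (interaction adjusted p = 0.0624). HMGCS1 was called lower with time in the treated arm (-0.14, adjusted p = 0.00429), a small change that lost its call without LLY-283 day 0 repeat 1 or repeat 3, or without day 5 repeat 2 or repeat 3, and when the spread was shared over 18 or 22 libraries.

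In the treated arm 13 genes were called higher at day 5. INSIG1 went from 79.1, 75.3 and 75.8 to 159.5, 155 and 148 CPM (1.02), SREBF2 from 247, 238 and 246 to 352, 342 and 336 CPM (0.51, against 0.50 in vehicle), and STARD4 from 45.2, 38.6 and 41.5 to 70.2, 67.0 and 67.1 CPM (0.72, against 0.66). MVK (0.64), HSD17B7 (0.62), MSMO1 (0.45), LBR (0.44) and INSIG2 (0.77, against 0.40 and not called in vehicle) rose as well. SCAP (0.28, against 0.10 and not called in vehicle), LSS (0.27), SC5D (0.30), MVD (0.30) and FDPS (0.14) made up the 13. The FDPS call was lost without LLY-283 day 0 repeat 2 (adjusted p = 0.0298) and with the spread shared over 18 (adjusted p = 0.0346) or 22 libraries. DHCR7 ran against most of the genes and fell with time in both arms. It went from 315, 366 and 368 to 229.9, 230.2 and 227 CPM in vehicle (-0.62). In the treated arm it went from 377, 346 and 363 to 198, 198 and 188 CPM (-0.88). PMVK (-0.19 and -0.27) and MBTPS2 (-0.27 and -0.17) were also called lower in both arms, although the vehicle call of PMVK and the treated call of MBTPS2 were each lost when some single libraries were left out. ERG28 was lower in the treated arm (-0.28).

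Whether the change from day 0 to day 5 differed between the arms was tested as the interaction of treatment and day over 12 libraries. It did for 13 of the 28 genes, 12 in the negative and 1 in the positive direction, against 8.15% and 6.78% of the 18369 genes tested. The 12 were ACAT2 (-0.95, SE 0.130), HMGCS1 (-0.63, SE 0.0884), MVD, IDI1, FDPS, SQLE, LSS, CYP51A1, LBR, NSDHL, EBP and DHCR7, and the 1 was TM7SF2 (0.71, SE 0.180). FDFT1 came close (-0.49, adjusted p = 0.0110). Among the control genes, INSIG1 was at -0.25 (adjusted p = 0.0487). MVK (-0.17), HSD17B7 (-0.19) and SREBF2 (0.03) had adjusted p values of 0.338, 0.228 and 0.768. The IDI1 call was lost when any 1 of 5 libraries was left out (adjusted p from 0.0115 to 0.0148), and that of DHCR7 when any 1 of 8 was (adjusted p from 0.0110 to 0.0244). The TM7SF2 call was lost with DESeq2 (adjusted p = 0.0255) and without vehicle day 0 repeat 2, vehicle day 5 repeat 2, LLY-283 day 0 repeat 2 or LLY-283 day 5 repeat 3. With library size alone in place of TMM, the split over all genes turned to 1252 negative and 1493 positive from 1497 and 1245. Of the 28 genes 12 were then called in the negative and 3 in the positive direction.

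**Figure D3:**
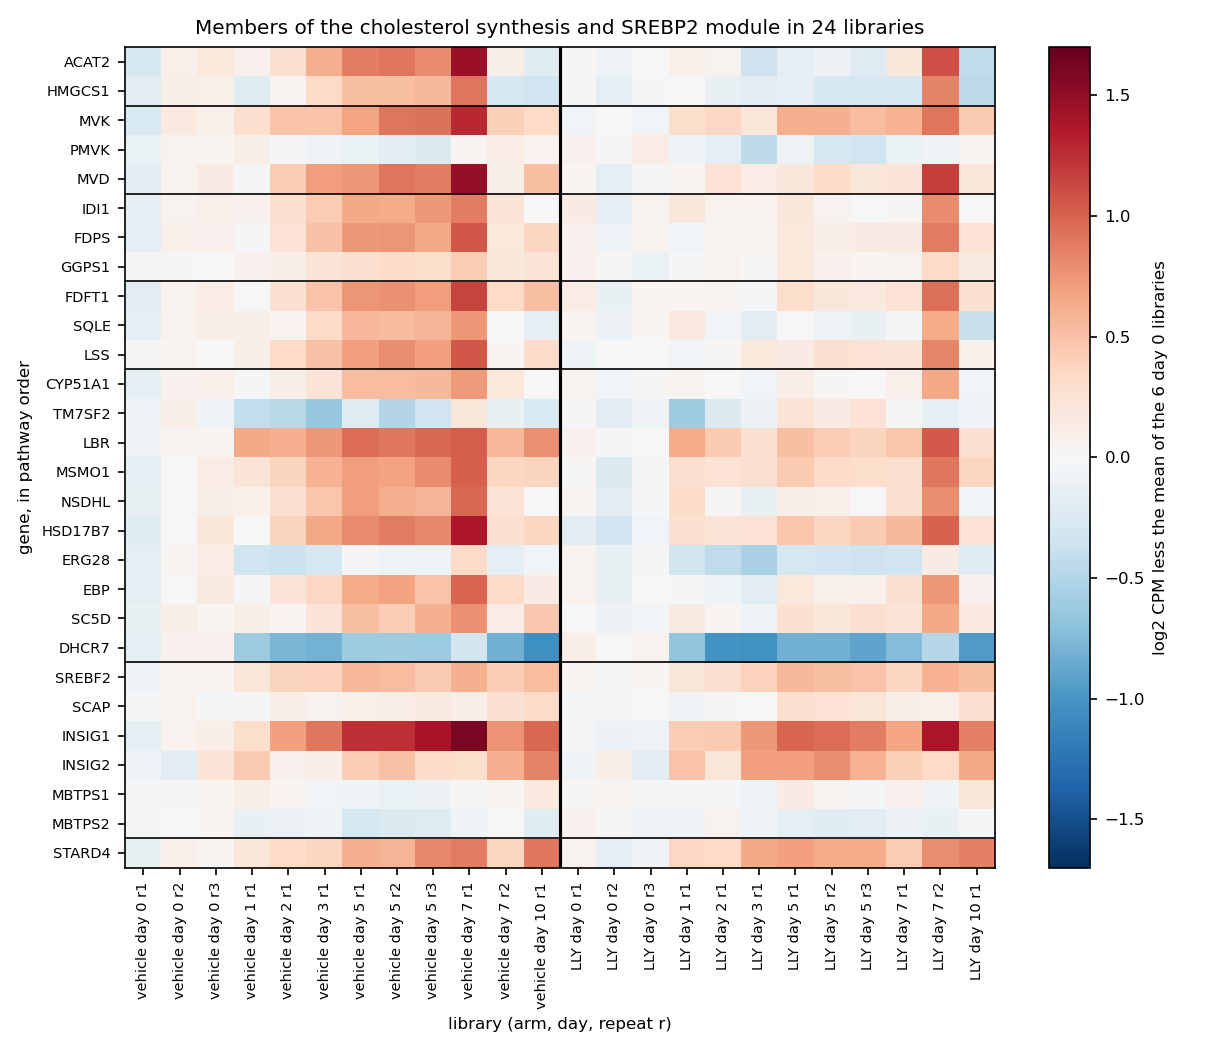
Level of each of the 28 genes (rows, in pathway order) in each of the 24 libraries (columns, vehicle left of the thick line). Values are log2 CPM less the mean of the vehicle day 0 libraries. The label of the colour bar names all 6 day 0 libraries, but those of the vehicle arm alone were used. Most rows turn red along the vehicle arm up to day 5 and stay paler with LLY-283, DHCR7 is blue from day 1 in both arms, and the libraries labelled vehicle day 7 repeat 1 and LLY-283 day 7 repeat 2 are red in most rows.

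Days 1, 2, 3 and 10 had 1 library an arm, so each difference there is a value with no test. A gene was counted as below the day 0 range when its difference in log2 CPM, LLY-283 less vehicle, was lower than all 9 differences between single libraries of day 0. This held for 3 of the 28 genes at day 1, against 23.5% of all genes, for 10 at day 2 (24%), for 18 at day 3 (30.1%) and for 6 at day 10 (24.5%). The median difference of the 28 was 0.03, -0.13, -0.30 and -0.07 at those days. At day 1 the genes were below the range no more often than the background, and at day 10 likewise.

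The first day from which a gene lay below its range up to day 3 was day 1 for PMVK and LSS and day 2 for FDPS, LBR, EBP and DHCR7. It was day 3 for a further 12 genes, among them ACAT2, HMGCS1, MVK, MVD, IDI1, FDFT1, SQLE and CYP51A1. This day depends on the width of each gene's day 0 range as well as on the size of the difference, so it is no order of onset: at day 2 NSDHL (-0.26), ACAT2 (-0.22), FDFT1 (-0.21) and IDI1 (-0.20) were within their ranges, while FDPS (-0.20) and LBR (-0.15) were below theirs. LSS measured 123 CPM in vehicle and 111 CPM in the treated arm at day 1, and 146 and 117 CPM at day 2. ACAT2 was level at day 1, with 69.8 and 70.4 CPM, and stood at 102 and 51.9 CPM at day 3 (difference -0.97). HMGCS1 measured 308 and 213 CPM at day 3 (difference -0.53). The other 10 genes, which included SREBF2, SCAP, INSIG1, INSIG2, MBTPS1, MBTPS2 and STARD4, did not pass in this way. Among them INSIG1 (-0.25), SCAP (-0.13), SREBF2 (-0.09) and MBTPS1 (-0.07) were below their ranges at day 2 but within them at day 3. MBTPS1 was also below its range at day 1 (-0.12). The counts at days 1 and 2 thus include control genes. MSMO1 and HSD17B7, although at -0.32 and -0.40 on day 3, stayed inside their wide day 0 ranges, and TM7SF2 (0.55), INSIG2 (0.58) and STARD4 (0.28) were above theirs.

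**Figure D4:**
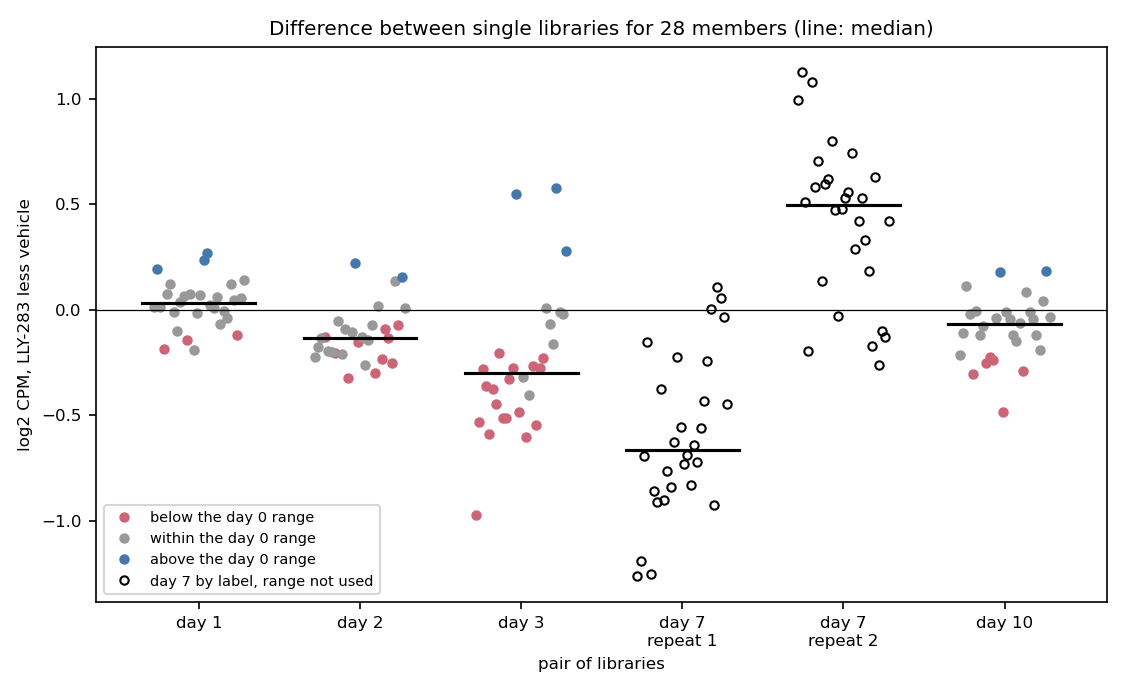
Difference in log2 CPM between single libraries, LLY-283 less vehicle, for each of the 28 genes at days 1, 2, 3 and 10 and for the 2 pairs of day 7 as labelled, with black lines at the medians. Points are red below, grey within and blue above the range of the 9 day 0 differences. The median moves from 0.03 at day 1 to -0.30 at day 3, and the 2 day 7 pairs lie on opposite sides of 0.

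A shift common to days 1 to 3, tested with day as a term over 6 libraries, was found by edgeR for none of the 28 genes. An unadjusted p under 0.05 was found for 7 of them, beside 2936 of all 18003 genes tested. STARD4, in the positive direction (0.15), was among the 7. DESeq2 also called none of the 28. The background was 0.00555% lower and 0.00555% higher, so this design called almost nothing among 18003 genes. Of the 28 estimates 24 were negative, with a median of -0.12, beside a median of 0.008 over all genes. That count has no share over all genes beside it, and at the day 0 baseline 21 of the 28 estimates were already negative. Without a filter on low counts 5 of the 28 genes were called lower, beside 288 lower and 229 higher of 38278 genes.

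DHCR7 and LBR had moved by day 1 in both arms. DHCR7 measured 315, 366 and 368 CPM in the vehicle day 0 libraries and 230.1 CPM at day 1, and 377, 346 and 363 and 219.6 CPM in the treated arm. LBR stood at 346 CPM in vehicle and 342 CPM in the treated arm at day 1, above all 6 libraries of day 0, which reached 232 CPM. The arms then parted, with LBR at 368 and 263 CPM on day 3. INSIG1 measured 99.2 and 108 CPM at day 1 and 150.4 and 135 CPM at day 3. SREBF2 measured 277 and 276 CPM at day 1 and 315 and 317 CPM at day 3. At day 2 it measured 311 CPM in vehicle and 292 CPM in the treated arm, a difference of -0.09 that lay below its narrow day 0 range.

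**Figure D5:**
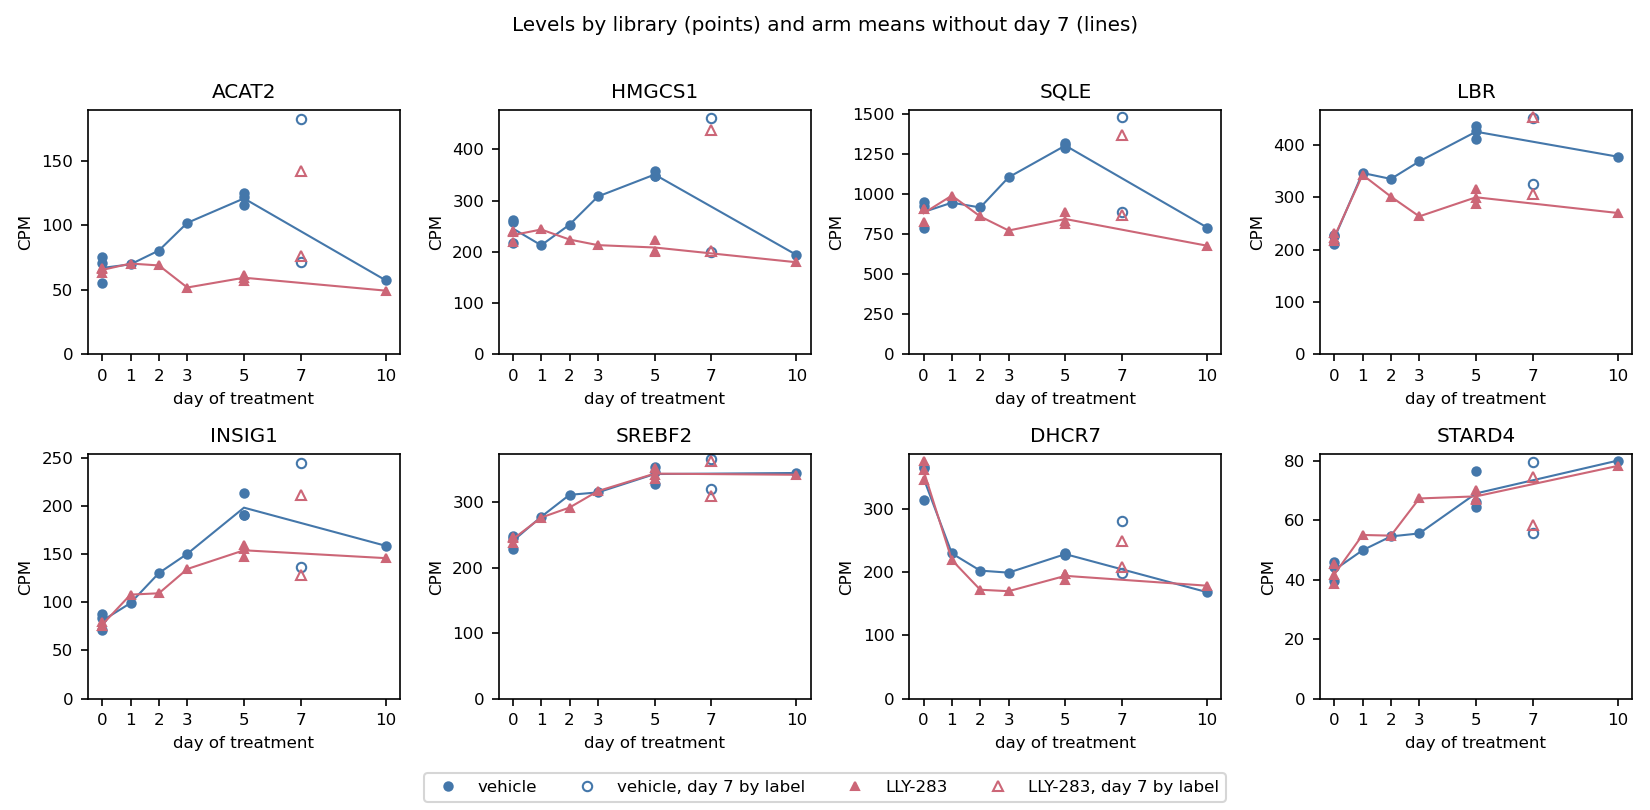
CPM of 8 genes by day of treatment, each point 1 library, blue circles for vehicle and red triangles for LLY-283, with lines through the arm means that leave out day 7 (open symbols, by label). ACAT2, HMGCS1 and SQLE part by day 3, the SREBF2 arms lie close at days 0, 3, 5 and 10, and DHCR7 drops by day 1 in both arms.

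At day 7, by label, none of the 28 genes was called by edgeR or by DESeq2, none had an unadjusted p under 0.05 in either, and the background was 0.0% in both directions over 16826 genes. Taken by repeat number, which did not pair the libraries, the 2 differences went opposite ways. The counts that follow have no share over all genes beside them. In repeat 1, 25 of the 28 genes were lower in the library labelled LLY-283, with a median difference of -0.67, and in repeat 2, 22 of 28 were higher in the library labelled LLY-283, with a median of 0.49. ACAT2 measured 182 and 71.4 CPM in the libraries labelled vehicle repeats 1 and 2 and 75.9 and 142 CPM in those labelled LLY-283. HMGCS1 measured 462 and 201 and 202 and 438 CPM, and MVD 110.5 and 42.2 and 46.3 and 89.3 CPM. The libraries labelled vehicle repeat 1 and LLY-283 repeat 2 were thus the high ones. An exchange of labels between the vehicle and LLY-283 libraries of the same repeat number is possible and was not tested. It would change what the day 7 counts and the fit over 22 libraries mean, and no direction of treatment at day 7 was drawn.

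At day 10 several synthesis genes were low in vehicle as well. ACAT2 stood at 57.4 CPM in vehicle and 49.4 CPM in the treated arm, HMGCS1 at 194 and 179.9 CPM, and SQLE at 790.3 and 677 CPM. For these genes the single vehicle library lay below each of the 3 vehicle libraries of day 5. The 6 of 28 genes below their day 0 range, no larger a share than the 24.5% of all genes, were LBR, with 377 against 269.7 CPM (difference -0.48), MVD (-0.31), SC5D (-0.29), FDFT1 (-0.25), LSS (-0.24) and SQLE (-0.22).

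Neighbouring pathways at day 5 are given beside the same background of 14.1% lower and 12% higher. Of 14 genes of the isoprenoid branches, which use mevalonate products for ubiquinone, dolichol and prenylated proteins, 6 were lower and 8 not called. PDSS1, which builds the ubiquinone side chain, measured 22.8 ± 0.235 CPM in vehicle and 15.2 ± 0.313 CPM in the treated arm (SD, n = 3; log2 fold change -0.55), COQ2, which attaches it, changed by -0.58, and PGGT1B, a prenyltransferase subunit, by -0.33. Of 14 sterol sensing and degradation factors 3 were lower and 3 higher. SREBF1, whose product SREBP1 mainly drives fatty acid synthesis, rose from 165 ± 4.97 to 244 ± 8.42 CPM (SD, n = 3; log2 fold change 0.60), in contrast to the level SREBF2. The ubiquitin ligases RNF145 (0.42) and MARCHF6 (0.23) rose as well. Of 18 genes of sterol trafficking and esterification 2 were lower and 4 higher, with SOAT1, which esterifies cholesterol, at -0.26, and the receptors SCARB2 and LRP1 at 0.23 and 0.41. The median log2 fold changes of these lists were -0.13, -0.03 and 0.08, beside -0.35 for the 28 genes.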

How the data were processed

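RNA of vehicle and LLY-283 treated HSJD-DIPG-007 cells was measured by poly(A) sequencing in 24 libraries with a directional kit. The authors assigned reads to human transcripts with kallisto (hg38 per the labels; version, transcript release and strand setting not given in the sources used here) and deposited estimated counts per gene in whole numbers, not normalised for library size, so rounding changed nothing. All 24 columns were used. Symbols came from a reference table, and positions from GENCODE 44 on GRCh38.

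The median library held 18688160.5 counts, and the counts limit precision for low genes such as TM7SF2. Genes were tested with edgeR 4.0.16 in R 4.3.3 (filterByExpr, TMM, robust quasi-likelihood, Benjamini-Hochberg over all genes tested, calls at adjusted p under 0.01), within the libraries of each comparison. CPM used TMM factors over 24 libraries, and log2 CPM a prior count of 2. DESeq2 1.42.0, other scalings, filters of none or 10 counts in every library, a threshold of 0.05, shared spread and left-out libraries were alternatives. Promoter windows came from RefSeq on GRCh38.p14.

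The test was tested on simulated data: for the day 5 design on 16137 genes, 72.2% of genes with a simulated log2 change of 1 were recovered, and 59.8% of genes with one of 0.5. The members, gene lists and tests were chosen with earlier results of these data known. All 28 members are named, and in each neighbouring list the 3 genes of smallest p at day 5. Repeat numbers did not pair the libraries: same-numbered libraries had correlations of deviations between -0.0764 and 0.0531.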

Additional observations from a re-analysis of the deposited data

Results flagged for a closer look

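The difference between LLY-283 and vehicle libraries changed from day 0, the baseline with 0 days of treatment, to day 5 for 13 of the 28 genes. The test was the interaction of treatment and day in edgeR's quasi-likelihood test. On the log2 scale the day 5 difference less the day 0 difference was -0.95 for ACAT2, -0.63 for HMGCS1 and -0.57 for SQLE. For IDI1 it was -0.56, for FDPS -0.55 and for MVD -0.51. It was -0.48 for NSDHL, -0.48 for LBR, -0.46 for CYP51A1, -0.43 for LSS, -0.43 for EBP and -0.25 for DHCR7. TM7SF2 was the 1 gene in the positive direction, at 0.71. Adjusted p values ran from 2.00e-07 for LBR to 0.00617 for DHCR7. The groups of the study held at most 3 libraries, too few to test single libraries as outliers.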

How the results depend on the processing

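The median log2 fold change of the 28 genes at day 5 lay between -0.31 and -0.39 under every alternative run, and the count called lower lay between 18 and 20 apart from 1 exception. With 1 fit of 22 libraries the counts were 0 lower and 1 higher at day 5, beside 1253 and 789 of all 20756 genes. In that fit 2 were lower and 7 higher in vehicle over time, beside 1994 and 3101 genes. In the treated arm over time 3 were lower and 5 higher, beside 2676 and 2817 genes. With day 7 left out of that fit the counts were 19 and 3 at day 5. DESeq2 called 1 gene higher at day 5 and 0 higher in the interaction. There 21 of the 28 had an unadjusted p under 0.05, with no share over all genes beside it. Library size alone gave 3, a minimum of 10 counts 2 and an adjusted p of 0.05 3 higher in the interaction. The threshold of 0.05 gave 5 lower in vehicle over time. For days 1 to 3, no filter gave 5 lower, beside 288 of 38278 genes, and leaving out day 3 gave 1, beside 144 of 17747 genes.

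Leaving out 1 library gave 0 to 2 genes higher and 18 to 20 lower at day 5, 3 to 5 lower in the treated arm over time (3 without LLY-283 day 0 repeat 1 or day 5 repeat 2), and 0 to 1 higher and 10 to 14 lower in the interaction. Estimates near 0 changed sign: STARD4 at day 5 was -0.0013 with DESeq2, -0.0 with its size factors in edgeR, -0.0187 in the fit of 22 libraries and -0.0485 to 0.0781 with 1 library left out. With 1 library left out PMVK was -0.1148 to 0.0094 and SREBF2 -0.0086 to 0.0364 at day 5, and SREBF2 in the interaction -0.0181 to 0.0455. With the replicate block, 19 genes were lower and 2 higher at day 5, and 11 lower and 1 higher in the interaction; libraries did not pair by number. Except where named, the cause was not tested.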
